A study of Macaca mulatta with 81 samples.

Results

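Messenger RNA splicing factors were examined in blood T cells of rhesus macaques after hematopoietic cell transplantation (HCT). The genes were those with a symbol starting SRSF and a number, HNRNP, SF3A, SF3B, SNRP, U2AF or PRPF that had a probe set assigned to that gene alone. When a gene had several such probe sets, the one with the highest mean over all 81 arrays was used. This gave 52 of 14133 genes, and all 52 passed a filter on dim genes that left 11807 genes for testing. By role they were 5 Sm core proteins, 4 proteins of the U1 particle, 11 of the U2 particle and the 3' splice site, 8 of the tri-snRNP, PRP19 complex and other PRPF proteins, 8 SR proteins and 16 hnRNP proteins.

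All T cells were sorted on CD3 from peripheral blood, and 34 arrays came from healthy untransplanted animals (Healthy.Control). The 47 transplant arrays came from 27 animals and fell into 15 groups. Allogeneic recipients without prophylaxis against graft-versus-host disease gave NoRx.F (4 arrays), where F is a final time point with no day in the labels. Allogeneic recipients with prophylaxis gave Siro.F (4), Tac.Mtx.D14 (3), Tac.Mtx.D30 (2), Tac.Mtx.F (3), Bela.F (3), Bela.Siro.D14 (3), Bela.Siro.D30 (3), Bela.Siro.F (2), FR104.D14 (3), FR104.F (3), FR104.Siro.D14 (4) and FR104.Siro.F (4). These names are those of the labels, which do not expand them, and D14 and D30 stand for days 14 and 30 after HCT. Bela.Siro.D30 held 1 array from day 29, and FR104.Siro.D14 held arrays from days 14, 14, 22 and 34. Autologous recipients without prophylaxis gave Auto.D14 (3, day 14) and Auto.D36 (3, day 36). Arrays of different time points came in part from the same animals, and 11 of the animals were sampled both healthy and after transplantation.

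The spliceosome removes introns from pre-messenger RNA. It is built from small nuclear ribonucleoproteins (snRNPs): the U1 snRNP reads the 5' splice site, the U2 snRNP with the SF3A and SF3B complexes binds the branch point, and U2AF reads the 3' splice site. A preformed tri-snRNP of U4, U6 and U5 then joins, and the PRP19 complex takes part in activation. The Sm proteins form a ring around the RNA of most snRNPs. SR proteins mostly promote the inclusion of exons and hnRNP proteins often oppose it. In T cells splicing changes with activation, and the textbook case is the tyrosine phosphatase CD45, whose variable exons are skipped in activated cells under the control of HNRNPLL and other hnRNP proteins.

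Each value is a log2 signal of 1 probe set, so levels are compared between samples and never between genes. Of 10 T cell marker genes, CD5, CD6, TRAT1 and ZAP70 were on the single-gene table. Their healthy means were 10.8, 7.56, 11.4 and 12.5, and genes for CD3 subunits were not analysed here. In bulk samples, fewer cells of a type and less RNA per cell cannot be told apart. Array quality differed between groups. The actin 3' minus 5' signal, a measure of RNA integrity and labelling, was 0.43 to 3.83 in healthy arrays and -0.34 to -0.30 in Auto.D36, below every healthy array. It was 0.017 to 0.373 in FR104.D14 and 0.095 to 0.425 in FR104.F, also below every healthy array (lowest 0.430). The mean signal of spiked-in control RNA was 9.79 to 10.2 in FR104.Siro.D14 and 8.93 to 9.04 in Auto.D36, against 9.09 to 9.81 in healthy arrays.

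In NoRx.F, splicing factor messages changed in both directions. Of the Sm core, 4 of 5 genes were higher than in healthy T cells, as were 2 of 4 U1 and 4 of 11 U2 and 3' splice site genes, by up to 1.95-fold, while SRSF5, SRSF6, SRSF8 and several PRPF and hnRNP genes were lower, by up to 1.96-fold. In all, 29 of 52 genes passed the test, 17 higher and 12 lower, and none changed 2-fold. The test was limma with group and batch as terms, and a gene was called at a Benjamini-Hochberg adjusted p under 0.05 over all genes tested. Of all genes tested, 35.4% were called, 20% higher and 15.4% lower, against 55.8% of the splicing factors, 32.7% higher and 23.1% lower. The median log2 change of the 52 genes was 0.11 against 0.05 over all genes. Every NoRx.F array lay above every healthy array for SF3A1, SF3B6, SNRPA, SNRPB, SNRPC, SNRPD3 and SNRPF, 7 genes, where 7.39% of all genes did so. Every NoRx.F array lay below every healthy array for HNRNPA0, PRPF6, SNRPN, SRSF5 and SRSF6, 5 genes, where 4.9% of all genes did so.

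**Figure D1:**
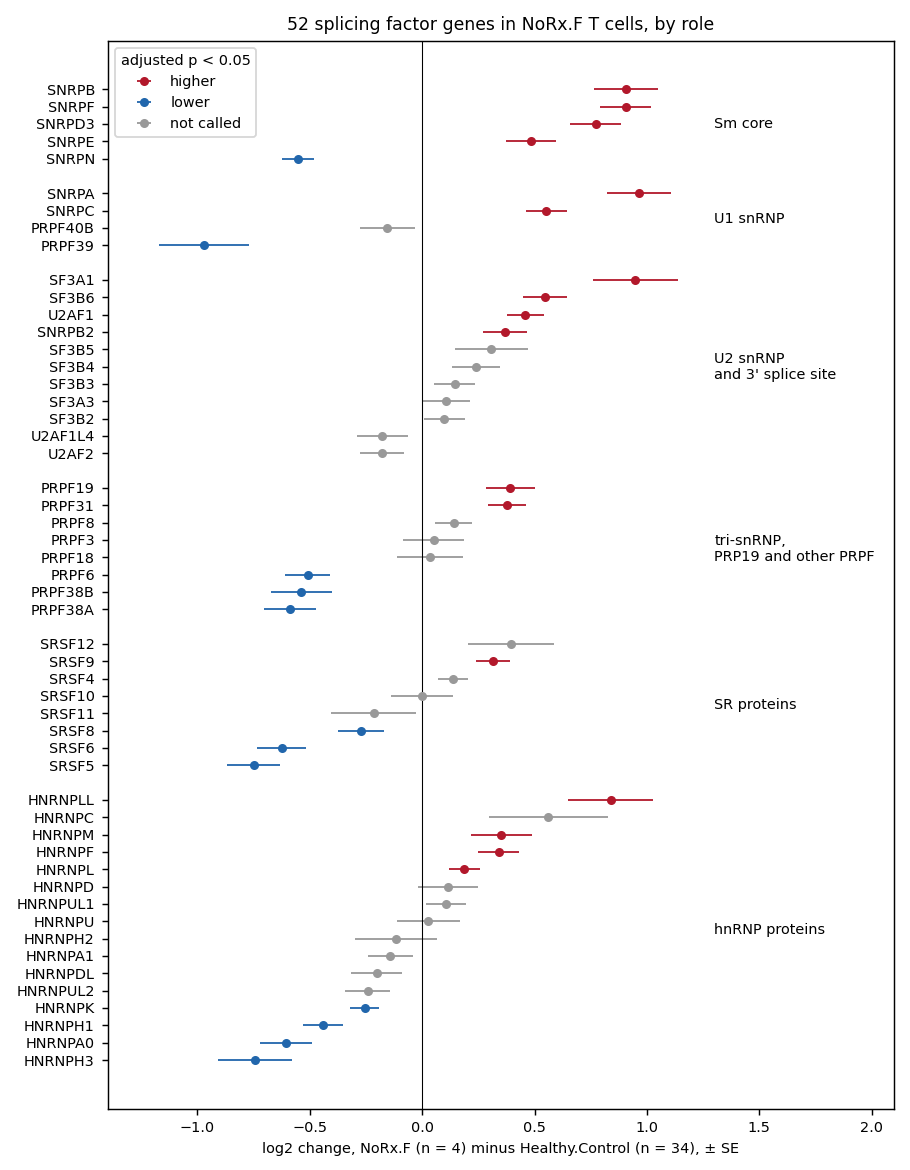
Log2 change ± SE of the 52 genes in NoRx.F (4 arrays) from Healthy.Control (34 arrays), grouped by role, with genes called higher in red, called lower in blue and not called in grey. SNRPN is the Sm core gene on the lower side, and the changes run from -0.97 (PRPF39) to 0.97 (SNRPA).

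All 5 Sm core genes were called, 4 higher and 1 lower. SNRPF, which encodes the ring subunit SmF, read 10.71, 10.77, 11.08 and 11.18 in NoRx.F, against 9.73 to 10.26 (median 10.05) in healthy T cells. Its change was 0.91 ± 0.12 (SE), 1.87-fold, with an adjusted p of 1.85e-09 in limma. SNRPB, the gene of SmB, read 9.80, 10.26, 10.28 and 10.33 against 8.68 to 9.68 (median 9.30), a change of 0.91 ± 0.14 (adjusted p = 4.41e-07, limma). SNRPD3, the gene of SmD3, read 10.50, 10.58, 10.75 and 10.98 against 9.54 to 10.21 (median 9.98), a change of 0.77 ± 0.11 (adjusted p = 5.77e-08, limma). None of these NoRx.F arrays overlapped the healthy ones. SNRPE rose by 0.48 and overlapped them, with 11.81 to 12.26 against 11.33 to 11.87.

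SNRPN encodes SmN, a relative of SmB from an imprinted gene. It went the other way, with 10.74, 10.90, 10.93 and 10.94 in NoRx.F against 11.06 to 11.67 (median 11.43). All 4 arrays lay below every healthy array. The change was -0.55 ± 0.07 (adjusted p = 2.14e-09, limma).

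The U1 genes were split. SNRPA encodes the U1 protein A, which binds a stem loop of U1 RNA, and it had the largest rise of the 52 genes. It read 9.25, 9.41, 9.71 and 9.96 against 8.21 to 8.91 (median 8.63), a change of 0.97 ± 0.14 or 1.95-fold (adjusted p = 8.23e-08, limma). SNRPC encodes the U1 protein C, which steadies the contact with the 5' splice site. It read 10.39, 10.43, 10.77 and 10.93 against 9.72 to 10.26 (median 10.11), a change of 0.55 ± 0.09 (adjusted p = 1.46e-06, limma). Neither overlapped the healthy range. PRPF39, a U1 partner, had the largest fall, at 6.87, 6.99, 7.23 and 7.48 against 7.36 to 8.87 (median 8.13). The change was -0.97 ± 0.20 (adjusted p = 5.65e-05, limma), and 1 array lay inside the healthy range. PRPF40B, another U1 partner, was at -0.15 and not called.

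Among the 11 genes of the U2 particle and the 3' splice site, 4 were called, all higher. SF3A1, a subunit of SF3A, read 10.76, 11.21, 11.23 and 11.64 against 9.41 to 10.69 (median 10.32), a change of 0.95 ± 0.19 (adjusted p = 3.02e-05, limma). SF3B6, the subunit next to the branch point adenosine, read 11.50, 11.54, 11.76 and 11.81 against 10.72 to 11.39 (median 11.13), a change of 0.54 ± 0.10 (adjusted p = 5.89e-06, limma). U2AF1, which reads the AG at the 3' splice site, read 11.59, 11.82, 11.84 and 11.97 against 11.12 to 11.60 (median 11.37), a change of 0.46 ± 0.08 (adjusted p = 5.23e-06, limma). SF3A1 and SF3B6 did not overlap the healthy arrays, and for U2AF1 the lowest NoRx.F array did. SNRPB2, which encodes the U2 protein U2B'', rose by 0.37. The other 7 genes (U2AF2, U2AF1L4, SF3B2, SF3A3, SF3B3, SF3B4 and SF3B5) lay between -0.18 and 0.31 and were not called.

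Of the 8 genes of the tri-snRNP, PRP19 complex and other PRPF proteins, 2 were called higher and 3 lower. PRPF19, the ubiquitin ligase of its complex, read 9.59, 9.64, 9.82 and 10.25 against 9.02 to 9.73 (median 9.48), a change of 0.39 ± 0.11 (adjusted p = 0.00281, limma). PRPF31, which holds U4 and U6 together with U5, rose by 0.38. PRPF38B read 8.26, 8.27, 8.60 and 8.92 against 8.71 to 9.56 (median 9.06), a change of -0.54 ± 0.14 (adjusted p = 0.00116, limma). PRPF19 overlapped the upper end of the healthy range and PRPF38B its lower end. PRPF38A, a protein of the precatalytic spliceosome, changed by -0.59, and PRPF6, a scaffold of the tri-snRNP, by -0.51. PRPF6 read 8.95 to 9.13 against 9.14 to 9.92, just below the healthy range. PRPF8, the protein at the catalytic centre, read 9.65, 9.68, 9.70 and 9.84 against 9.37 to 9.77 and was not called (0.14, adjusted p = 0.192, limma). PRPF3 and PRPF18 were at 0.05 and 0.03 and not called.

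Of the 8 SR genes, 1 was called higher and 3 lower. SRSF5 read 11.45, 11.65, 11.73 and 11.97 against 11.98 to 12.78 (median 12.49), a change of -0.75 ± 0.12 or 1.68-fold down (adjusted p = 3.01e-07, limma). SRSF6 read 10.61, 10.80, 11.02 and 11.11 against 11.11 to 11.89 (median 11.54), a change of -0.63 ± 0.11 (adjusted p = 3.38e-06, limma). Both genes encode exon-enhancer binding proteins, and their highest NoRx.F array lay just below the lowest healthy one. SRSF8 changed by -0.27, with an adjusted p of 0.0325 in limma. SRSF9 rose by 0.32. SRSF4, SRSF10, SRSF11 and SRSF12 lay between -0.22 and 0.40 and were not called.

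Of the 16 hnRNP genes, 4 were called higher and 4 lower. HNRNPLL, a regulator of CD45 exon skipping, read 10.53, 10.65, 10.97 and 11.04 against 9.37 to 10.55 (median 9.95), a change of 0.84 ± 0.19 or 1.79-fold (adjusted p = 0.000231, limma). Only its lowest NoRx.F array lay inside the healthy range. HNRNPL, its relative, read 11.78, 11.94, 11.97 and 12.06 against 11.54 to 11.96, a change of 0.19 ± 0.07 (adjusted p = 0.0241, limma) with overlapping arrays. HNRNPM and HNRNPF rose by 0.35 and 0.34. The genes lower were HNRNPH3 (-0.74), HNRNPA0 (-0.61), HNRNPH1 (-0.44) and HNRNPK (-0.26). HNRNPA1, one of the most studied splicing repressors, read 11.89, 12.03, 12.06 and 12.28 against 11.84 to 12.53. All 4 were inside the healthy range, and the gene was not called (-0.14, adjusted p = 0.286, limma). HNRNPC, which binds uridine tracts, was at 0.56 ± 0.26 and not called (adjusted p = 0.0936, limma). The other 6 lay between -0.24 and 0.11 and were not called.

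Leaving out any 1 NoRx.F array kept 25 of the 29 calls. HNRNPL lost its call without replicate 50, 52 or 53, at adjusted p of 0.120, 0.0621 and 0.0795 in limma. HNRNPM lost it without replicate 50, 51 or 53 (adjusted p of 0.159, 0.0539 and 0.0581 in limma). SRSF8 lost it without replicate 52 or 53 (adjusted p of 0.148 and 0.0774 in limma), and PRPF19 without replicate 50 (0.0731 in limma). Within batch 1, which held 3 NoRx.F arrays, 25 genes were called. Batch 2 held 1 NoRx.F array, and a fit of that batch took its spread from the healthy and Siro.F arrays. Outside that batch 2 fit, SNRPA, SNRPB, SNRPD3, SNRPF, SNRPN and U2AF1 kept their calls under every alternative. So did further genes, SNRPC, SF3B6, SRSF5, SRSF6, HNRNPLL and HNRNPA0 among them. SNRPA, SNRPD3 and SNRPF have 1 probe set each, so the mean of a gene's sets could not change their values. Other lists moved with NoRx.F. All 10 dividing-cell genes tested were higher, and their mean log2 level lay 2.36 to 3.47 above the healthy mean in NoRx.F and -0.54 to 0.73 from it in healthy arrays. Of 11 myeloid genes 4 were higher (mean level 0.09 to 1.98 in NoRx.F, -1.16 to 1.78 in healthy arrays), and of 4 T cell genes 2 were lower (-0.71 to -0.37 against -0.32 to 0.32). Called higher were also 2 of 6 B cell, 2 of 4 plasma cell, 1 of 6 platelet and 0 of 5 erythroid genes, and 2 of 6 NK cell genes were lower. The part of these lists in the splicing factor changes was not tested.

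Animal R.53 gave a healthy and a NoRx.F array of the same batch. Between its own arrays SNRPB was 1.16 higher, HNRNPLL 0.95, SNRPF 0.72, SF3A1 0.72 and SNRPA 0.69 on the log2 scale. PRPF39 differed by -0.75, SRSF5 by -0.69, SRSF6 by -0.62 and SNRPN by -0.42. Some genes not called in the group test differed as much: PRPF40B by -0.79, SRSF12 by 0.83 and PRPF3 by 0.61. Some called genes differed little: SNRPE by 0.11, PRPF19 by 0.07 and PRPF38A by -0.12. In all 27 of the 52 genes were higher and the median difference was 0.04. This is a single pair and has no test, and both arrays also enter the group comparison.

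Other probe sets of the same genes did not always move alike. The 52 genes had 121 single-gene probe sets, of which 119 passed the filter. Tested among 37220 probe sets, 25 were higher in NoRx.F and 28 lower, where 12.9% of all probe sets were higher and 13.4% lower. Of the 29 called genes 19 had other sets, and for 11 of these another set was called in the same direction.

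HNRNPDL was not called by its brightest set (-0.20 ± 0.11), nor by a further set (-0.16 ± 0.16). Another set read 7.59, 7.62, 8.28 and 8.66 in NoRx.F against 9.54 to 11.16 (median 10.18) in healthy T cells. This 4.46-fold fall (-2.16 ± 0.29, adjusted p = 9.97e-09 over all probe sets, limma) was larger than the change of any of the 52 sets used for a gene. The remaining set read 7.86 to 8.15 against 8.57 to 9.62 and fell by 0.98 ± 0.18 (adjusted p = 1.29e-05, limma). Neither set overlapped the healthy arrays. HNRNPDL is an RNA-binding relative of HNRNPD with several known transcripts, and which transcripts each set reads was not analysed here. The set with the 4.46-fold fall was also lower in Bela.F (-1.21) and Auto.D36 (-1.35), and the remaining set in Bela.F (-0.85).

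SRSF5 was lower by 3 of its 4 sets, at -0.75, -0.79 and -1.27, and its dimmest set was at 0.17 and not called. The set with the largest fall read 10.42, 10.61, 10.62 and 10.86 against 11.38 to 12.26, with no overlap. That set was called lower in 7 of the 15 groups against healthy T cells: NoRx.F (-1.27), FR104.D14 (-0.64), Siro.F (-0.57), Auto.D14 (-0.52), FR104.F (-0.49), Auto.D36 (-0.43) and Bela.F (-0.43). The set used for the gene was called in NoRx.F, Siro.F and Bela.F.

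SF3A1 and HNRNPD had sets called in opposite directions. For SF3A1, 3 of 8 sets were higher (0.95, 0.82 and 0.64) and 2 lower (-0.30 and -0.42). For HNRNPD 1 of 5 sets was higher (0.38 ± 0.13) and 1 lower (-0.77 ± 0.26), while the brightest was not called. Of the 4 HNRNPLL sets 3 passed the filter, and of these 2 were higher, at 0.84 and 1.11, and the other was at 0.27 and not called. The second set of SRSF6 was at 0.01 and not called, and the other 4 sets of HNRNPK lay between 0.18 and 0.42 and were not called. The difference between sets of a gene was not tested. With the mean of a gene's sets in place of the brightest, SF3A1 lost its call and HNRNPK turned to 0.15.

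**Figure D2:**
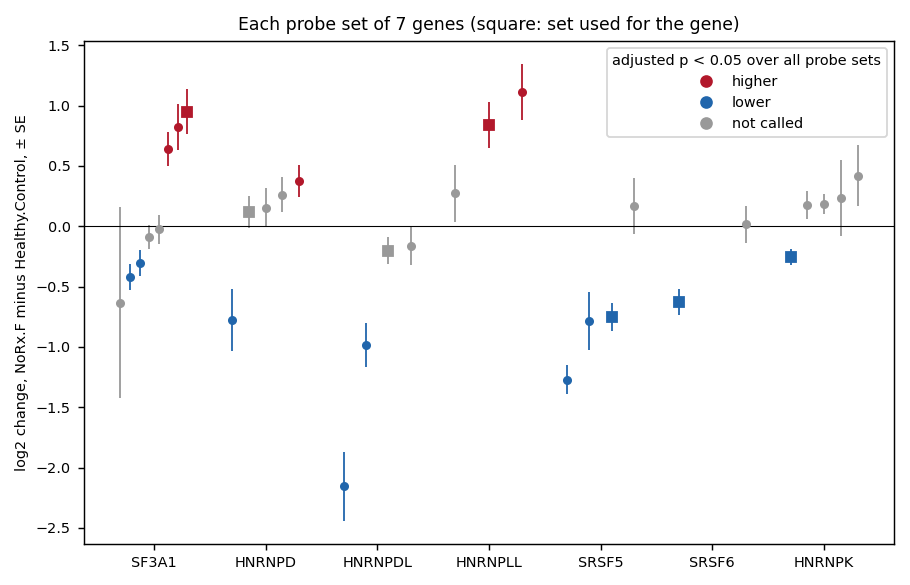
Log2 change ± SE in NoRx.F from Healthy.Control for each probe set of 7 genes, with squares for the brightest set, which was used for the gene, and colours for calls over all probe sets. HNRNPDL has a set at -2.16 beside its brightest set at -0.20, and SF3A1 has sets called on both sides of 0.

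A list of 99 other splicing genes gave 76 on the array, all tested. In NoRx.F 17 of the 76 were higher and 20 lower, where 20% of all genes were higher and 15.4% lower. The largest rises were BUD31 (1.06, 2.08-fold), a protein of the activated spliceosome, TXNL4A (0.70) of the U5 particle, SNRNP25 (0.66) of the minor spliceosome, and LSM3 (0.65), LSM5 (0.55) and LSM6 (0.53), subunits of the LSm ring on U6 RNA. The largest falls were CLK4 (-1.18, 2.27-fold) and CLK1 (-1.05, 2.08-fold), kinases that phosphorylate SR proteins. ELAVL1 (-0.96 ± 0.37, adjusted p = 0.0343, limma), RBM5 (-0.87 ± 0.14), CELF1 (-0.80 ± 0.11) and LUC7L (-0.79 ± 0.12) followed, with ELAVL1 the least precise of these. PTBP1, a repressor of exons, rose by 0.28, and SNRNP200, the helicase of U5, was at 0.09 and not called.

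Across all 15 transplant groups against healthy T cells, 21 of the 52 genes were called higher at least once and never lower, and 21 lower at least once and never higher, where 33.2% and 26.5% of all genes were so called. HNRNPLL and SRSF10 were called in both directions, as were 3.82% of all genes. The 8 genes never called, where 36.4% of all genes were never called, were HNRNPA1, HNRNPD, HNRNPDL, HNRNPUL2, SF3A3, SF3B5, SRSF11 and SRSF12. Estimates were above 0 in all 15 groups for SNRPB, SNRPC, SNRPD3, SNRPF and U2AF1, and below 0 in all 15 for HNRNPH1, PRPF39 and PRPF6, where 5.05% and 5.23% of all genes were so. These comparisons share the healthy arrays.

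**Figure D3:**
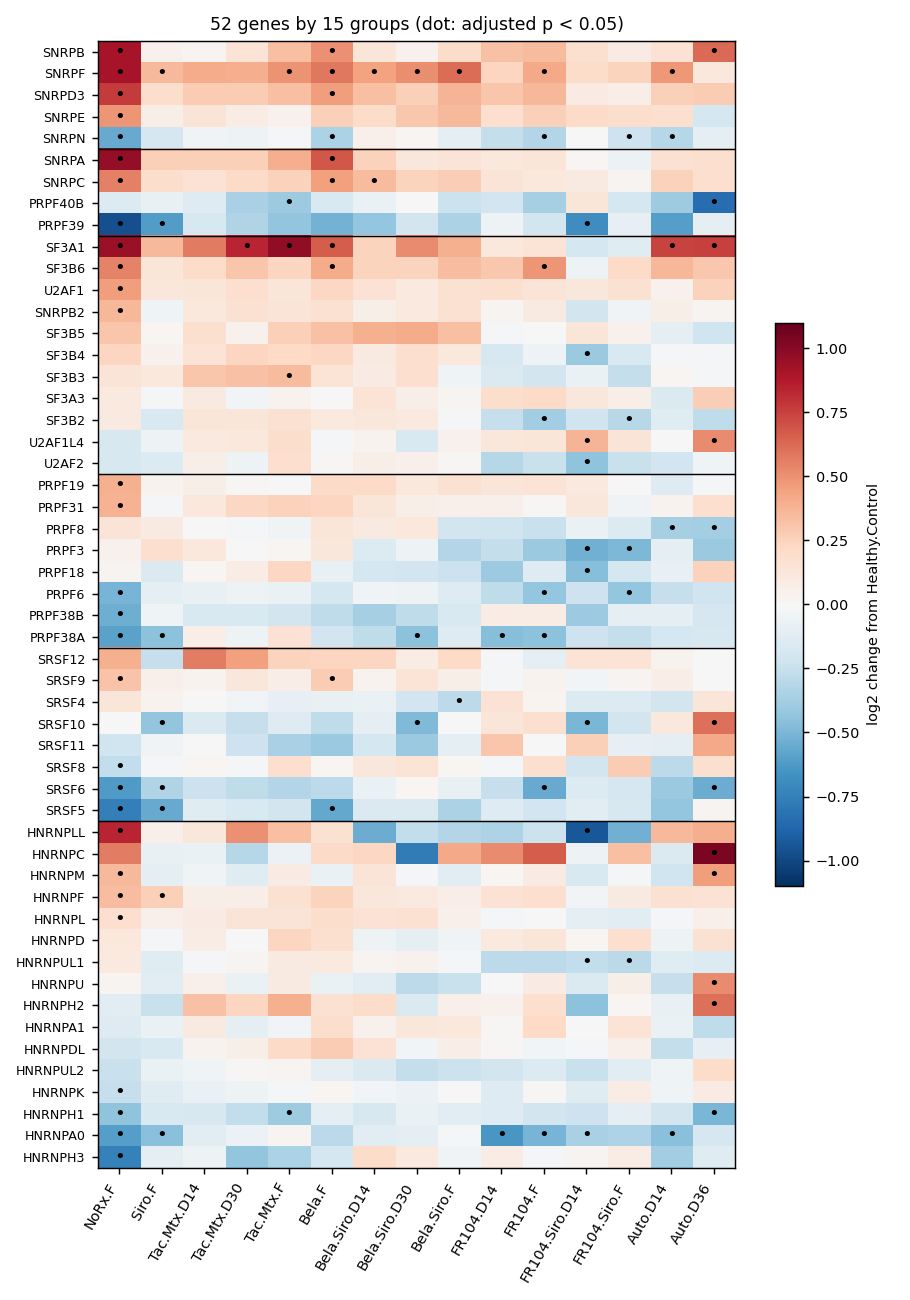
Log2 change from Healthy.Control (colour) of the 52 genes (rows, by role) in the 15 transplant groups (columns), with a dot where the gene was called. SNRPF carries dots in 9 columns and SF3A1 in 6, and NoRx.F has 29 dots.

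**Figure D4:**
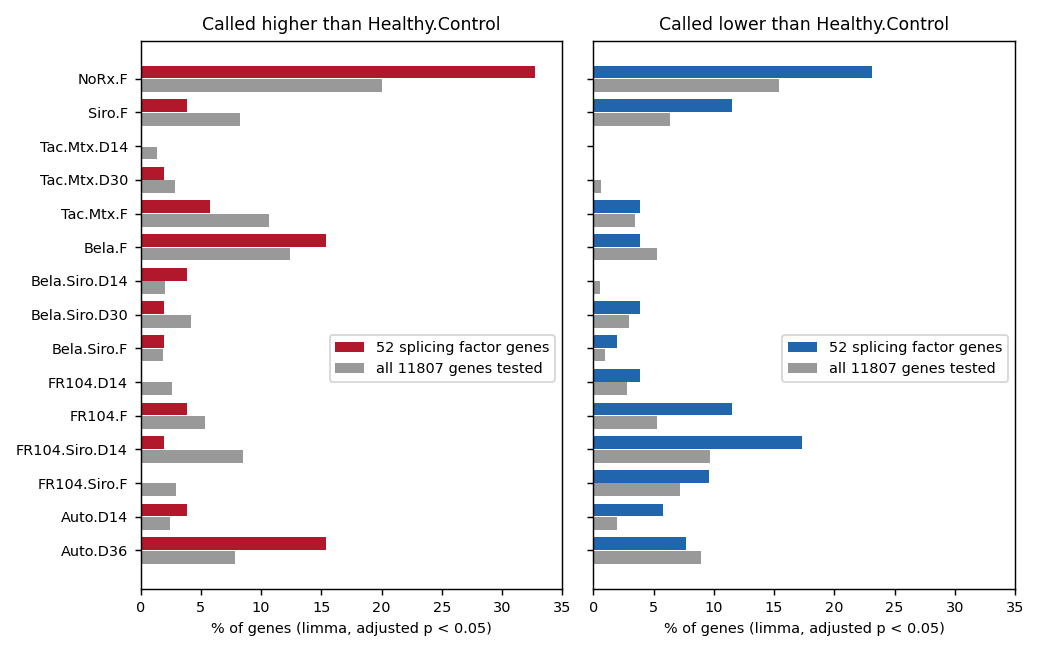
Share of the 52 splicing factor genes called higher (left, red) and lower (right, blue) than Healthy.Control in each transplant group, beside the share of all 11807 genes tested (grey). NoRx.F has 32.7% higher against 20% of all genes, and Tac.Mtx.D14 has none called.

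SNRPF was called higher in 9 of the 15 groups. By group mean its level was highest in NoRx.F, followed by Bela.Siro.F, where the arrays read 10.64 and 10.67, and Bela.F at 10.31, 10.66 and 10.87. These lay above the healthy maximum of 10.26, and Bela.Siro.F and Bela.F overlapped each other. Its smallest change was in Auto.D36 (0.12, 10.06 to 10.23), inside the healthy range.

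SF3A1 was called higher in NoRx.F, Tac.Mtx.D30 (0.84), Tac.Mtx.F (0.98), Bela.F (0.67), Auto.D14 (0.75) and Auto.D36 (0.76). The largest of these was Tac.Mtx.F, with 11.15, 11.15 and 11.39, which overlapped NoRx.F at 10.76 to 11.64. FR104.Siro.D14, at 9.65 to 10.28, and FR104.Siro.F, at 9.75 to 10.69, stayed inside the healthy range of 9.41 to 10.69.

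HNRNPLL was called in both directions. In NoRx.F it was 0.84 above healthy T cells and in FR104.Siro.D14 it was 0.94 below. It read 8.65, 8.71, 9.32 and 9.42 in FR104.Siro.D14, against a healthy range of 9.37 to 10.55. Single arrays of other groups also lay below this range, in FR104.Siro.F (8.98), Bela.Siro.F (9.05) and FR104.D14 (9.09). So did single arrays of Bela.Siro.D14 (9.18) and Bela.Siro.D30 (9.36), and HNRNPLL was called in none of these groups. All 3 of its sets that passed the filter, of 4, were called lower in FR104.Siro.D14 (-0.94, -0.95 and -0.87). Auto.D14 (10.24 to 10.38) and Auto.D36 (10.34 to 10.40) lay in the upper part of the healthy range and were not called, although the set of HNRNPLL at 1.11 in NoRx.F was called higher in Auto.D36 (1.01).

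HNRNPA0 was called lower in 6 groups, PRPF38A and SNRPN in 5 each, and SRSF6 in 4. HNRNPA0 was lowest in FR104.D14, at 10.30, 10.49 and 10.54 against 10.66 to 11.55, below every healthy array, where 1.39% of all genes lay so.

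**Figure D5:**
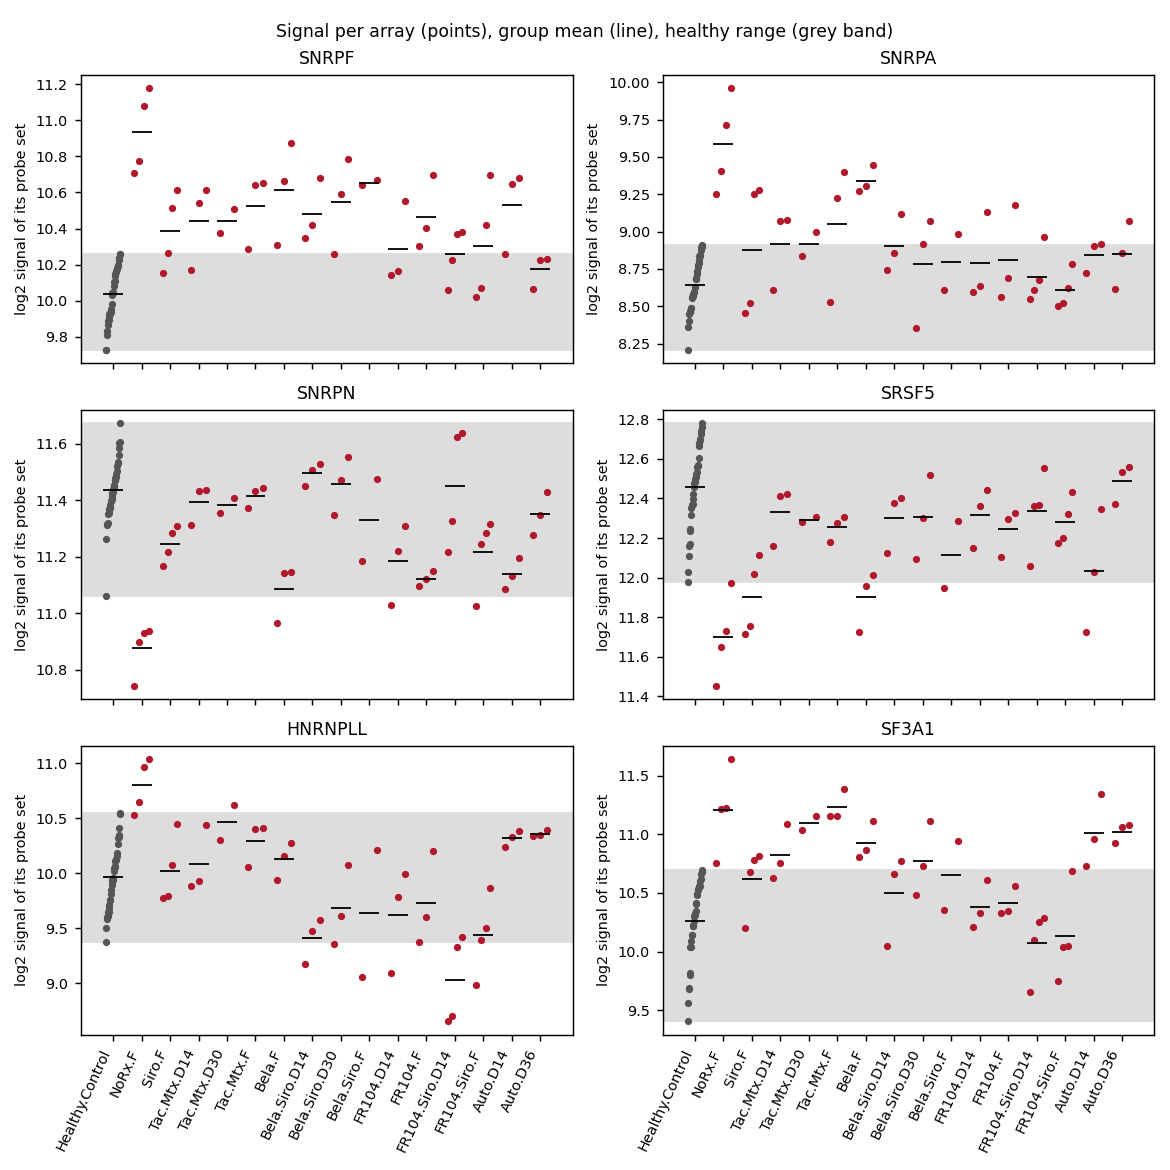
Log2 signal of 6 genes on each of the 81 arrays (points) in the 16 groups, with the group mean as a line and the healthy range as a grey band. The 4 NoRx.F arrays lie above the band for SNRPF, SNRPA and SF3A1 and below it for SNRPN and SRSF5. HNRNPLL lies below the band in part of FR104.Siro.D14. It does so too on single arrays of FR104.Siro.F, FR104.D14, Bela.Siro.D14, Bela.Siro.D30 and Bela.Siro.F.

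Siro.F had 8 called genes, 2 higher and 6 lower, where 14.6% of all genes were called (8.26% higher and 6.34% lower). The higher ones were SNRPF (0.35) and HNRNPF (0.26), and the largest falls were PRPF39 (-0.61), SRSF5 (-0.55) and HNRNPA0 (-0.46). HNRNPA0, PRPF38A and SRSF5 kept their calls without any 1 array, and the count was 4 without replicate 13 and 5 without replicate 16, 17 or 18. Within batch 1 alone 1 gene was called and within batch 2 alone 4. All 10 dividing-cell genes were higher in Siro.F (mean level 0.90 to 2.53, highest healthy array 0.73). Of 4 T cell genes 1 was lower (mean level -0.52 to -0.35, lowest healthy array -0.32), and the part of both lists was not tested.

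In Bela.F, 8 genes were higher and 2 lower, where 17.6% of all genes were called (12.4% higher and 5.25% lower). SNRPA (0.68), SF3A1 (0.67) and SNRPF (0.58) had the largest rises, and SNRPB, SNRPD3, SNRPC, SF3B6 and SRSF9 rose too. SRSF5 (-0.56) and SNRPN (-0.35) were lower. SNRPA read 9.27, 9.30 and 9.44, above every healthy array, as did SF3A1, SNRPC and SNRPF, 4 genes where 3.96% of all genes did so. SNRPA, SNRPC, SNRPF, SNRPN and SRSF5 kept their calls without any 1 array, and the count was 6 without replicate 46 or 47. After a further quantile normalization 8 genes were higher and 4 lower. All 10 dividing-cell genes were higher in Bela.F too (mean level 1.68 to 2.64 above healthy arrays). Of 11 myeloid genes 4 were higher and 1 lower (mean level 1.56 to 1.89). The myeloid estimates ran from -1.52 (CD68) to 6.07 (S100A8) and 6.38 (S100A9). The part of both lists was not tested.

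The Tac.Mtx groups had few called genes. In Tac.Mtx.D14 limma called 0 of 52, where 1.47% of all genes were called (1.4% higher and 0.0678% lower). At an unadjusted p under 0.05 there were 5 of 52, against 1508 of all 11807 genes. Without replicate 19, 1 gene was called. In Tac.Mtx.D30, SF3A1 alone was called (0.84), where 3.46% of all genes were called (2.85% higher and 0.61% lower), and it was lost without replicate 19 or replicate 20. In Tac.Mtx.F, 3 genes were higher (SF3A1 0.98, SNRPF 0.49 and SF3B3 0.35) and 2 lower (PRPF40B -0.40 and HNRNPH1 -0.39), where 14.1% of all genes were called (10.7% higher and 3.41% lower). The count fell to 2 without replicate 20 or 21, and SF3A1 kept its call throughout. Dividing-cell genes were higher in Tac.Mtx.F for 8 of 10 (mean level 0.11 to 1.89), and their part was not tested.

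In Bela.Siro.D14 SNRPF (0.44) and SNRPC (0.35) were higher, where 2.52% of all genes were called (1.99% higher and 0.525% lower), and neither was called without replicate 42 or 49. In Bela.Siro.D30 SNRPF (0.51) was higher and SRSF10 (-0.49) and PRPF38A (-0.45) lower, where 7.18% of all genes were called (4.23% higher and 2.95% lower). The count was 7 without replicate 38 and 0 without replicate 42 or 49. In Bela.Siro.F SNRPF (0.62) was higher and SRSF4 (-0.29) lower, where 2.84% of all genes were called (1.87% higher and 0.966% lower), and neither was called without replicate 38 or 42. Myeloid genes were higher for 4, 4 and 3 of 11 in these groups at day 14, day 30 and F (mean levels 0.33 to 2.40, 0.40 to 2.06 and 0.64 to 3.04), and their part was not tested.

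In FR104.D14 HNRNPA0 (-0.64) and PRPF38A (-0.47) were lower, where 5.39% of all genes were called (2.58% higher and 2.8% lower). The count was 4 with the animal as a replicate block, 1 with the actin signal as a covariate, 1 without replicate 24 and 0 without replicate 23. FR104.F had 2 genes higher, SF3B6 (0.49) and SNRPF (0.41), and 6 lower, led by SRSF6 (-0.56), HNRNPA0 (-0.51) and PRPF38A (-0.45), where 10.7% of all genes were called (5.39% higher and 5.28% lower). The count was 1 without replicate 22 and 3 without replicate 23. Of 10 dividing-cell genes 8 were higher in FR104.D14 (mean level 1.09 to 1.74) and 10 in FR104.F (1.27 to 2.64), and their part was not tested.

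FR104.Siro.D14 had 1 gene higher, U2AF1L4 (0.37), and 9 lower, led by HNRNPLL (-0.94), PRPF39 (-0.68) and PRPF3 (-0.53), where 18.2% of all genes were called (8.52% higher and 9.68% lower). HNRNPLL, PRPF3 and U2AF2 kept their calls without any 1 array, and the count was 4 without replicate 29. With the spike-in signal as a covariate 1 gene was called, and with the day 14 arrays only, 2. After a further quantile normalization 2 were higher and 3 lower. FR104.Siro.F had 5 genes lower, led by PRPF3 (-0.50), PRPF6 (-0.42) and SF3B2 (-0.31), where 10.1% of all genes were called (2.91% higher and 7.15% lower). The count was 2 without replicate 27, 3 without replicate 29 and 0 without replicate 28. A further quantile normalization gave 1 higher and 3 lower. Of 10 dividing-cell genes 0 were higher in FR104.Siro.D14 (mean level -0.75 to 0.29) and 3 in FR104.Siro.F, and of 4 T cell genes 1 and 2 were lower. The part of these lists was not tested.

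Autologous recipients had 5 genes called at day 14 and 12 at day 36. Auto.D14 had SF3A1 (0.75) and SNRPF (0.47) higher and HNRNPA0 (-0.46), PRPF8 (-0.36) and SNRPN (-0.31) lower, where 4.4% of all genes were called (2.47% higher and 1.92% lower). With the animal as a replicate block 8 were called, and without replicate 201 or 202 none was. Auto.D36 had 8 genes higher and 4 lower, where 16.7% of all genes were called (7.83% higher and 8.89% lower). The largest rises were HNRNPC (1.03, 2.05-fold), SF3A1 (0.76) and SNRPB (0.62), and the largest falls PRPF40B (-0.83), SRSF6 (-0.55) and HNRNPH1 (-0.50). R.200, R.201 and R.202 each also gave a healthy array of the same batch, which the test did not pair. Between an animal's own arrays SF3A1 was 0.20, 0.29 and 0.68 higher at day 14, and 0.39, 0.40 and 0.40 at day 36. At day 36 HNRNPC was 0.65, 0.58 and 0.93 higher, and SNRPB 0.45, 0.21 and 0.56. These pairs have no test. Of 10 dividing-cell genes 8 were higher in each autologous group (mean levels 1.12 to 1.58 and 0.95 to 1.84), and their part was not tested.

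HNRNPC read 11.10, 11.50 and 11.53 in Auto.D36 against 9.22 to 11.11 (median 10.33) in healthy T cells, so 1 array overlapped. A probe set shared by HNRNPC and another gene did not move alike. It was at 0.10 ± 0.11 in Auto.D36 and not called, at 11.66 to 11.98 against a healthy maximum of 12.01. PRPF40B read 6.61, 6.64 and 6.73 against 7.15 to 7.99 (median 7.49), below every healthy array. In Auto.D36, 7 genes lay above every healthy array and 3 below, where 4.56% and 4.29% of all genes did so. The actin 3' minus 5' and spike-in signals were also below every healthy array in this group, and with the actin signal as a covariate 4 genes were called in place of 12. The share of all genes called in that fit is not given here. HNRNPH1, PRPF40B, SNRPB, SRSF6 and U2AF1L4 kept their calls without any 1 array, and 5 genes were called without replicate 201. After a further quantile normalization 8 were higher and 7 lower. Of the 12 called genes 8 had other single-gene sets, and for 2 of these another set was called in the same direction. With the mean of a gene's sets, HNRNPH1 turned to 0.14 and HNRNPM to -0.11.

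NoRx.F was then compared with other transplant groups. Against Auto.D14, 4 genes were higher in NoRx.F, SNRPA (0.79), SNRPB (0.75), PRPF8 (0.50) and SRSF4 (0.34), where 3.33% of all genes were called (1.9% higher and 1.43% lower). For SNRPA the 4 NoRx.F arrays (9.25 to 9.96) lay above the 3 Auto.D14 arrays (8.72, 8.90 and 8.91). None of the 4 calls was kept in every fit that left out an array. The count was 2 without Auto.D14 replicate 201, 1 without Auto.D14 replicate 200 or NoRx.F replicate 52, and 0 without NoRx.F replicate 50. It was 7 with the animal as a replicate block. NoRx.F lay in batches 1 and 2 and Auto.D14 in batch 4, so this comparison and those with Tac.Mtx, Bela and FR104 groups run through the healthy arrays of each batch.

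Against NoRx.F, the prophylaxis group with the most called genes was FR104.Siro.F, with 7 genes higher and 15 lower, where 19.6% of all genes were called (6.56% higher and 13.1% lower). The largest falls were HNRNPLL (-1.37, 2.58-fold), SF3A1 (-1.09) and SNRPA (-1.03), and the largest rises PRPF39 (0.88), HNRNPH3 (0.83) and SRSF5 (0.58). HNRNPLL read 8.98, 9.39, 9.50 and 9.87 in FR104.Siro.F and 10.53 to 11.04 in NoRx.F, and the groups did not overlap. SNRPA read 8.50 to 8.78 and 9.25 to 9.96, also without overlap. Of the 22 calls, 11 were kept without any 1 array, HNRNPLL, SF3A1, SNRPA, SNRPB, SNRPC, SNRPD3, SNRPF, HNRNPH3, HNRNPK, SRSF5 and SRSF8. The count was 13 without NoRx.F replicate 52 and 14 without FR104.Siro.F replicate 28. Mean dividing-cell levels, relative to healthy arrays, were 0.42 to 1.54 in FR104.Siro.F and 2.36 to 3.47 in NoRx.F, and their part was not tested.

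Siro.F had 4 genes higher than NoRx.F and 12 lower, where 12.1% of all genes were called (5.39% higher and 6.67% lower). All but SNRPN of the 5 Sm core genes were lower, by 0.42 to 0.86, and SNRPN was 0.37 higher. SNRPB had the largest fall (-0.86), with 8.92, 9.30, 9.38 and 9.62 in Siro.F and 9.80 to 10.33 in NoRx.F, without overlap. HNRNPLL (-0.79) and SNRPA (-0.71) followed. The largest rises were HNRNPH3 (0.63), PRPF38B (0.49) and PRPF6 (0.40). SNRPB, SNRPD3, SNRPF and SNRPN kept their calls without any 1 array. The count was 5 when Siro.F replicate 17 was left out, 7 for Siro.F replicate 16, 10 for NoRx.F replicate 50 and 7 for NoRx.F replicate 52. After a further quantile normalization 6 were higher and 9 lower.

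Tac.Mtx.F had 4 genes higher than NoRx.F, PRPF38A (0.75), HNRNPA0 (0.64), SRSF5 (0.54) and SNRPN (0.53), where 6.95% of all genes were called (4.7% higher and 2.24% lower). PRPF38A and SNRPN kept their calls, and the count was 2 without Tac.Mtx.F replicate 19. A further quantile normalization gave 4 higher and 5 lower. Between Bela.F and NoRx.F limma called 0 of 52, where 1.86% of all genes were called (1.67% higher and 0.195% lower). At an unadjusted p under 0.05 there were 11 of 52, against 1581 of all 11807 genes. Without NoRx.F replicate 53, 1 gene was called.

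Bela.Siro.F, with 2 arrays, had 3 genes higher than NoRx.F, HNRNPA0 (0.59), SRSF6 (0.54) and SNRPN (0.44), and 4 lower, HNRNPLL (-1.16), SNRPA (-0.82), SNRPB (-0.70) and SRSF4 (-0.43), where 7.75% of all genes were called (4.22% higher and 3.53% lower). Without Bela.Siro.F replicate 42, 1 gene was called, and with the animal as a replicate block HNRNPA0 was at an adjusted p of 0.0501 in limma. FR104.F had 5 genes lower than NoRx.F, led by HNRNPLL (-1.08), SNRPA (-0.83) and SF3B2 (-0.48), where 7.66% of all genes were called (3.54% higher and 4.12% lower). With the animal as a replicate block 9 were called, but PRPF8 was not (adjusted p = 0.0600, limma), and after a further quantile normalization 2 were higher and 8 lower. The count was 9 when FR104.F replicate 22 was left out, 0 for replicate 23 and 1 for replicate 24. It was 1 when NoRx.F replicate 50 was left out, 2 for replicate 52 and 12 for replicate 53.

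Between FR104.Siro.F and FR104.F limma called 0 of 52 genes, where 0.00847% of all genes were called. At an unadjusted p under 0.05 there were 4 of 52, against 876 of all 11807 genes. The comparisons over time had the same animals at both time points, which the test did not pair. Over time, SRSF8 alone was higher in FR104.Siro.F than in FR104.Siro.D14 (0.48 ± 0.12, adjusted p = 0.0216, limma), where 3.1% of all genes were called (1.68% higher and 1.42% lower). It read 8.48 to 8.93 and 8.17 to 8.47, without overlap. Without FR104.Siro.D14 replicate 27 or 29 or FR104.Siro.F replicate 26, 27 or 28 no gene was called. The count was 3 without FR104.Siro.D14 replicate 28, 2 without FR104.Siro.F replicate 29, and 3 with the animal as a replicate block. Between FR104.F and FR104.D14 limma called 0 genes, where 0% of all genes were called. At an unadjusted p under 0.05 there was 1 of 52, against 341 of all 11807 genes. The difference between these 2 time changes also had 0 called and 1 at an unadjusted p under 0.05, against 315 of all genes.

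From day 14 to day 36 after autologous HCT, HNRNPU (0.77) and SRSF4 (0.34) were higher, where 0.974% of all genes were called (0.855% higher and 0.119% lower). The same animals gave both time points, which the test did not pair. HNRNPU, a nuclear matrix hnRNP, read 10.08, 10.23 and 10.85 at day 14 and 11.14, 11.15 and 11.17 at day 36, without overlap. With the animal as a replicate block 6 genes were called. The count was 8 without Auto.D14 replicate 200 and 0 without either of the other Auto.D14 arrays or any Auto.D36 array. With the actin 3' minus 5' signal as a covariate it was 0, and this signal was 0.29 to 2.26 at day 14 and -0.34 to -0.30 at day 36.

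The mean over the 52 genes, each centred on its healthy mean, lay between -0.11 in FR104.Siro.D14 and 0.09 in Tac.Mtx.F, against an SD of 0.06 among healthy arrays. The mean over the Sm core was 0.49 ± 0.17 (SD, n = 4) in NoRx.F and lay between 0.09 (Siro.F) and 0.29 (Bela.F and Bela.Siro.F) in the other transplant groups, with an SD of 0.10 in healthy arrays. The named genes outside these lists (LOC symbols left out) most like the mean of the 52 over the 16 group means were INTS9, PSMD6, FRRS1, AGA and ZMAT2, with Pearson r of 0.90, 0.90, 0.89, 0.89 and 0.89. These are descriptions over group means that share arrays, batches and normalization.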

How the data were processed

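T cell RNA was hybridised to 81 Affymetrix rhesus arrays after 3' IVT Plus labelling, per the labels' protocols. The authors deposited log2 signals of 52865 probe sets, made with RMA in affy per the submitters' processing notes, which name no version. The lowest value was 1.52. When healthy arrays of the 4 batches were compared by an F test, 61.0% of probe sets had a p over 0.95. Batch means thus lay closer together than the spread between arrays gives by chance, as after an adjustment for batch. Such a step is not given in the sources used here, and if it was made, p-values may be too small. The platform annotation assigned 24969 probe sets to 1 gene, 361 to several and 27535 to none. Genes above the 40th percentile of all values (4.65) on at least 2 arrays were tested. limma 3.58.1 (lmFit, eBayes with a trend) with statmod 1.5.0 in R 4.3.3 was fitted to 11807 genes with group and batch (4 batches, as labelled) as terms and 62 residual degrees of freedom. Tests were 2-sided, with Benjamini-Hochberg adjustment within each of 26 comparisons and 1 difference of time changes. Log2 differences are case minus reference with the fit's SE. The code was tested on simulated data.

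Groups, days and animals came from the labels, and each array within a group was from a different animal. Arrays of the same animal are paired by the animal named there, and the within-animal correlation in a fit with it as a random replicate block was 0.19. Alternatives were no batch term, no filter, the animal block, the mean of a gene's probe sets, further quantile normalization, each batch alone, day 14 arrays only, and each array left out. Counts under alternatives are of the 52 genes, without the share of all genes called in the same fit. Added after seeing the data were actin 3' minus 5' and spike-in covariates and the fit on probe sets. Genes were named by rule: all 52 for NoRx.F, array values for the 10 with the smallest adjusted p and 16 chosen genes where present (others shown were chosen after their values were seen), and in other comparisons the 3 largest changes each way (others named there, with calls kept or lost, were chosen after their values were seen). Genes and lists were chosen with earlier results of these data known. Probe sets of several genes and without gene names were left out. Array number limits the precision.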

Additional observations from a re-analysis of the deposited data

Results flagged for a closer look

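Among 17 genes checked in the 4 groups of 4 arrays (68 checks), 3 had an array far from the other 3, a number near the 1 in 20 that chance gives. SNRPB read 9.80 in NoRx.F replicate 51, against 10.26 to 10.33 in the others. SNRPC read 10.36 in FR104.Siro.F replicate 26, against 10.02 to 10.05. HNRNPA1 read 12.58 in FR104.Siro.F replicate 29, against 12.26 to 12.29.

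Differences between time points under the same comparison with healthy T cells were tested. SRSF8 was 0.48 higher in FR104.Siro.F than in FR104.Siro.D14. HNRNPU was 0.77 and SRSF4 0.34 higher in Auto.D36 than in Auto.D14.

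A probe set assigned to several genes, 1 of them an Sm gene, was outside the comparisons. Its lowest array lay above the highest healthy array (10.21) in NoRx.F (10.54), Tac.Mtx.D30 (10.35), Bela.Siro.F (10.28) and FR104.F (10.28). Of the genes tested, 7.39%, 4.95%, 3.46% and 3.4% lay so in these groups. The set was also called higher in Auto.D14 (0.78), Bela.F (0.69), FR104.F (0.60), Tac.Mtx.F (0.52) and Siro.F (0.45). In Tac.Mtx.D30 and Bela.Siro.F, with 2 arrays each, it was not called. In NoRx.F its change was 1.05 ± 0.13 (adjusted p = 1.71e-09 over all probe sets, limma), and its gene cannot be told apart.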

How the results depend on the processing

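Of 163 calls, 163 held without the batch term, 161 with the animal replicate block, 152 with no filter, 145 after further quantile normalization, 140 with the actin covariate and 139 with the spike-in covariate, and none changed sign under these. The block ended only the calls of HNRNPA0 (Bela.Siro.F against NoRx.F) and PRPF8 (FR104.F against NoRx.F). With the mean of a gene's probe sets 113 of 162 held and 4 turned: HNRNPK in NoRx.F (0.15), HNRNPH1 (0.14) and HNRNPM (-0.11) in Auto.D36, and HNRNPL in FR104.Siro.F against NoRx.F (0.036). Leaving out each array in turn kept 530 of 812 calls over all such fits, with no change of sign. The causes were not tested, and groups of 2 to 4 arrays limit the precision.

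Counts of called genes that moved over 1.5 times against healthy T cells follow. Without batch they were Tac.Mtx.D14 1, Tac.Mtx.F 10, Bela.Siro.D30 5, FR104.D14 7, FR104.F 13, FR104.Siro.D14 17, FR104.Siro.F 10 and Auto.D14 12. With the replicate block they were FR104.D14 4 and Auto.D14 8. With no filter Bela.Siro.F had 1. With the mean of probe sets Tac.Mtx.D30 had 0, Tac.Mtx.F 3, FR104.F 4 and FR104.Siro.F 3. After quantile normalization FR104.Siro.D14 had 5. In batch 1 alone Siro.F had 1, in batch 2 alone NoRx.F 7 and Siro.F 4, in batch 3 alone Tac.Mtx.D30 0, Bela.Siro.D14 0 and Bela.Siro.F 1, and in batch 4 alone FR104.D14 1, FR104.Siro.D14 4, FR104.Siro.F 1 and Auto.D14 0. With day 14 arrays only FR104.Siro.D14 had 2. With the actin covariate FR104.D14 had 1, FR104.Siro.F 2, Auto.D14 8 and Auto.D36 4, and with the spike-in covariate FR104.Siro.D14 had 1 and FR104.Siro.F 3.

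Between transplant groups, without batch NoRx.F against Auto.D14 had 10, and against NoRx.F Tac.Mtx.F had 15, Bela.F 2 and FR104.F 22. With the replicate block NoRx.F against Auto.D14 had 7, FR104.F against NoRx.F 9, FR104.Siro over time 3 and autologous over time 6. With no filter NoRx.F against Auto.D14 had 2, FR104.F against NoRx.F 3 and autologous over time 1. With the mean of probe sets autologous over time had 8. After quantile normalization Tac.Mtx.F against NoRx.F had 9, FR104.F against NoRx.F 10, FR104.Siro over time 2 and autologous over time 1. Autologous over time had 0 with either covariate, and FR104.Siro over time 0 with the spike-in covariate.

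Leaving out each array in turn gave, against healthy T cells, NoRx.F 26 to 30, Siro.F 4 to 5, Tac.Mtx.D14 0 to 1, Tac.Mtx.D30 0 to 0, Tac.Mtx.F 2 to 6, Bela.F 6 to 12, Bela.Siro.D14 0 to 2, Bela.Siro.D30 0 to 7, Bela.Siro.F 0 to 0, FR104.D14 0 to 2, FR104.F 1 to 7, FR104.Siro.D14 4 to 10, FR104.Siro.F 0 to 6, Auto.D14 0 to 7 and Auto.D36 5 to 9. Against NoRx.F it gave Siro.F 5 to 19, Tac.Mtx.F 2 to 5, Bela.F 0 to 1, Bela.Siro.F 1 to 9, FR104.F 0 to 12 and FR104.Siro.F 13 to 25. NoRx.F against Auto.D14 gave 0 to 6, FR104.Siro over time 0 to 3, autologous over time 0 to 8, and FR104 over time and FR104.Siro.F against FR104.F 0 to 0. A lone array left in a group is assumed to vary like the other groups.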
